A study of Mus musculus with 26 samples.

Results

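Open chromatin was examined around 4 genes for transcription factors, Pou3f1, Sox1, Sox3 and Sall2, grouped here as neural-prone factors, in cultures of mouse pluripotent cells. The members were all peaks that overlapped the GRCm38 span of a gene or the 50 kb on each side of it, called its window. Of the 451563 peaks in 26 deposited lists, 317 lay in the 4 windows: 156 at Pou3f1, 77 at Sox1, 19 at Sox3 and 65 at Sall2. Merging overlapping or touching peaks of all lists gave 32 regions, of which 15 lay at Pou3f1, 8 at Sox1, 3 at Sox3 and 6 at Sall2. A region within 1 kb of either end of the span of a protein-coding gene was called a gene end, and any other region was called distal. There were 3 regions at the end of a member, 3 at the end of another gene and 26 distal regions.

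Pou3f1 encodes a POU-domain factor of class III, which binds octamer sequences and is known for promoting neural fate as pluripotent cells leave the naive state. Sox1 and Sox3 encode SOXB1 factors, close relatives of Sox2 that mark early neuroectoderm and neural progenitors, and Sall2 encodes a zinc-finger factor of the Spalt family. Promoters and distal enhancers of active or poised genes are often found in open chromatin, which the Tn5 transposase cuts more readily, but an open region does not by itself give a transcript level.

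Each library was made from 50000 cells by ATAC-seq, in which Tn5 inserts sequencing adapters into accessible DNA. The first set held 6 cultures with 3 libraries each: embryonic stem cells in 2iL at passage 16 (ES), formative stem cells in A3XR at passage 21 (FS1) and passage 29 (FS2), epiblast stem cells in AF at passage 22 (EpiSC_AF), and epiblast stem cells in AFX at passage 14 (EpiSC_AFX1) and passage 16 (EpiSC_AFX2). A second set, whose labels carry the prefix Rd2, held 2 libraries of embryonic stem cells in 2iL at passage 33 (labelled Rd2GFP, here Rd2_ES), 4 of epiblast-like cells (Rd2_EpiLC) and 2 of epiblast stem cells in AFX at passage 16 (Rd2_AFX). Epiblast-like cells were made from embryonic stem cells in AF with KSR over 2 days, and their fraction with low GFP was sorted. Formative pluripotency, which the series title names, is placed after the naive state of embryonic stem cells and before the primed state of epiblast stem cells. The labels name GFP for the Rd2 embryonic stem cells and in the sort of the epiblast-like cells, without saying what drives it, and give no strain, sex or other allele. The labels give ES, FS1, FS2, EpiSC_AF, EpiSC_AFX1 and EpiSC_AFX2 as 1 culture at 1 passage each. They do not say whether the libraries of a culture came from separate dishes. Each p below therefore measures the spread between these libraries, which may be technical, and ES is 1 culture in each comparison that uses it.

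The lists hold no read counts, so depth was unknown. List length ran from 8044 to 10961 peaks in ES, 23883 to 31263 in FS1, 11796 to 14147 in FS2, 15505 to 24824 in EpiSC_AF, 17701 to 27485 in EpiSC_AFX1 and 25641 to 29575 in EpiSC_AFX2. It was 471 and 2576 in Rd2_ES, 7469 to 26045 in Rd2_EpiLC, and 10719 and 11252 in Rd2_AFX. A longer list holds more peaks in any window, so the first set was compared with every list cut to its 8044 peaks of highest -log10 p, called equal length, and values from the lists as deposited are given beside these. At equal length, of 10 naive markers, 3 to 5 had a gene-end peak in an ES library, 1 to 3 in an FS library and 3 to 4 in an EpiSC_AFX library. The naive markers did not follow the labels together: the ends of Zfp42 and Tbx3 had a peak in 3 of 3 ES libraries and in no FS or EpiSC_AFX library, the end of Tfcp2l1 was covered in all 6 EpiSC_AFX libraries, 4 of 6 from FS and none from ES, and those of Esrrb, Nr5a2, Prdm14 and Dppa3 had none in ES. No ES library, cut or uncut, had a peak at an end of any of 6 formative markers. At equal length 0 to 2 of the 6 had one in an FS library and 2 to 4 in an EpiSC_AFX library. The ends of Otx2 and Dnmt3a had none in either, so these markers did not follow the labels together either. In the lists as deposited, peaks summed over the windows of 8 neural progenitor markers numbered 3 to 7 in ES, 21 to 29 in FS1, 9 to 14 in FS2 and 20 to 32 in EpiSC_AFX, and those of 6 mesendoderm markers numbered 1 to 4 in ES, 3 to 19 in FS and 6 to 22 in EpiSC_AFX. At equal length these gaps were smaller or gone, with 3 to 7 in ES, 5 to 10 in FS and 5 to 10 in EpiSC_AFX for the neural progenitor markers, and 0 to 4, 0 to 2 and 1 to 3 for the mesendoderm markers. The part of other cell types and of list length in the results below was not tested. A bulk list cannot tell fewer cells with an open site from less open chromatin in each cell.

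RefSeq starts of Sox1 and Sall2 are shown here so that the letters at these starts can be set beside the peaks over them: the Sox1 start lay under a peak in 12 of 26 lists, the outer Sall2 start in 0 and the inner Sall2 start in 13. Each sequence is RefSeq's for GRCm38.p6, 280 bases read 5′ to 3′ on the strand of the gene and ending 30 bases past the start. Capitals mark the octamer ATGCAAAT, the sequence that POU-domain factors bind.
Sox1, chr8:12395269-12395548, plus strand: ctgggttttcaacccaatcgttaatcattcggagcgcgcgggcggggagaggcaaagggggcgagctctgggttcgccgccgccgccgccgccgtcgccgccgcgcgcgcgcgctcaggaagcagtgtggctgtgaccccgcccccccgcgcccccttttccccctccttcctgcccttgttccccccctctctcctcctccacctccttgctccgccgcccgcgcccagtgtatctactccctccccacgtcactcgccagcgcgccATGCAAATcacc
Sall2 outer start, chr14:52328641-52328920, minus strand: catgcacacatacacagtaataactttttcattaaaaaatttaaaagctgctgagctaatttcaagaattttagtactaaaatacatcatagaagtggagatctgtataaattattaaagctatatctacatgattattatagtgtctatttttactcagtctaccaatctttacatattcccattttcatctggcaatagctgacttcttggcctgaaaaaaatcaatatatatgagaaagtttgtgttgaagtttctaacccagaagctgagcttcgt
Sall2 inner start, chr14:52316294-52316573, minus strand: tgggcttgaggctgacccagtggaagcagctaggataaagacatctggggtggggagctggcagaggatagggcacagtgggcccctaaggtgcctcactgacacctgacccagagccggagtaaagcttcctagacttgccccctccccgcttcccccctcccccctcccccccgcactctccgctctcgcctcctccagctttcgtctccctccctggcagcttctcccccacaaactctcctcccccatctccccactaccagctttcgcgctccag

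The Sox1 sequence was rich in G and C, at 70.4%, and held 33 CpG dinucleotides, while the outer Sall2 sequence had 30% and 1 CpG and the inner Sall2 sequence 63.9% and 8. Both strands were searched for 5 motifs, namely the octamer ATGCAAAT, the SOX-type CATTGT and CTTTGT, the OTX-type TAATCC and the ZIC-type CAGCAGG. A single match was found, the octamer on the strand of Sox1 at base 269 of the sequence above, 19 bases past the start, and its letters overlap no other match. Among 32851 RefSeq promoters of 300 bases, ATGCAAAT occurs in 1.69%, CATTGT in 11.9%, CTTTGT in 17.9%, TAATCC in 6.77% and CAGCAGG in 9.59%. A match is a description of the letters and not evidence of binding. RefSeq starts whose GC content lay within 5 percentage points were covered in a median of 16 lists for Sox1, 0 for the outer Sall2 start and 14 for the inner one, and 99.9% of the starts like the outer Sall2 start were covered in no list. The Sox1 start was covered in 3 FS1, 2 EpiSC_AF, 3 EpiSC_AFX1 and 2 EpiSC_AFX2 libraries, 1 ES library and 1 Rd2_EpiLC library, and in no FS2, Rd2_ES or Rd2_AFX library.

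Across the windows, peaks in FS and EpiSC libraries covered many regions that had none in ES. Of the 32 regions, 25 had no peak in any ES library of either set, 7 had one in the first-set ES libraries, and none was found in ES without also being found in FS or EpiSC_AFX. Counting a region once for a group if any of its libraries held it, ES held 7, FS1 23, FS2 14, EpiSC_AF 20, EpiSC_AFX1 22, EpiSC_AFX2 25, Rd2_ES 0, Rd2_EpiLC 23 and Rd2_AFX 11. There were 10 regions found in FS1 and not FS2, and 1 found in FS2 and not FS1, with the FS2 lists being the shorter. These counts are from the lists as deposited, and the ES lists are the shortest of each set. The matching shares over all regions of the genome are not given here, so the counts describe the windows and set them apart from no other part of the genome. At equal length 15 regions had no peak left in the first set, and 6 regions came from a single list. The region chr8:12430228-12431623, with its middle at 35.4 kb from the lower end of Sox1, was kept at equal length in 1 ES library. No other first-set library kept it.

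**Figure D1:**
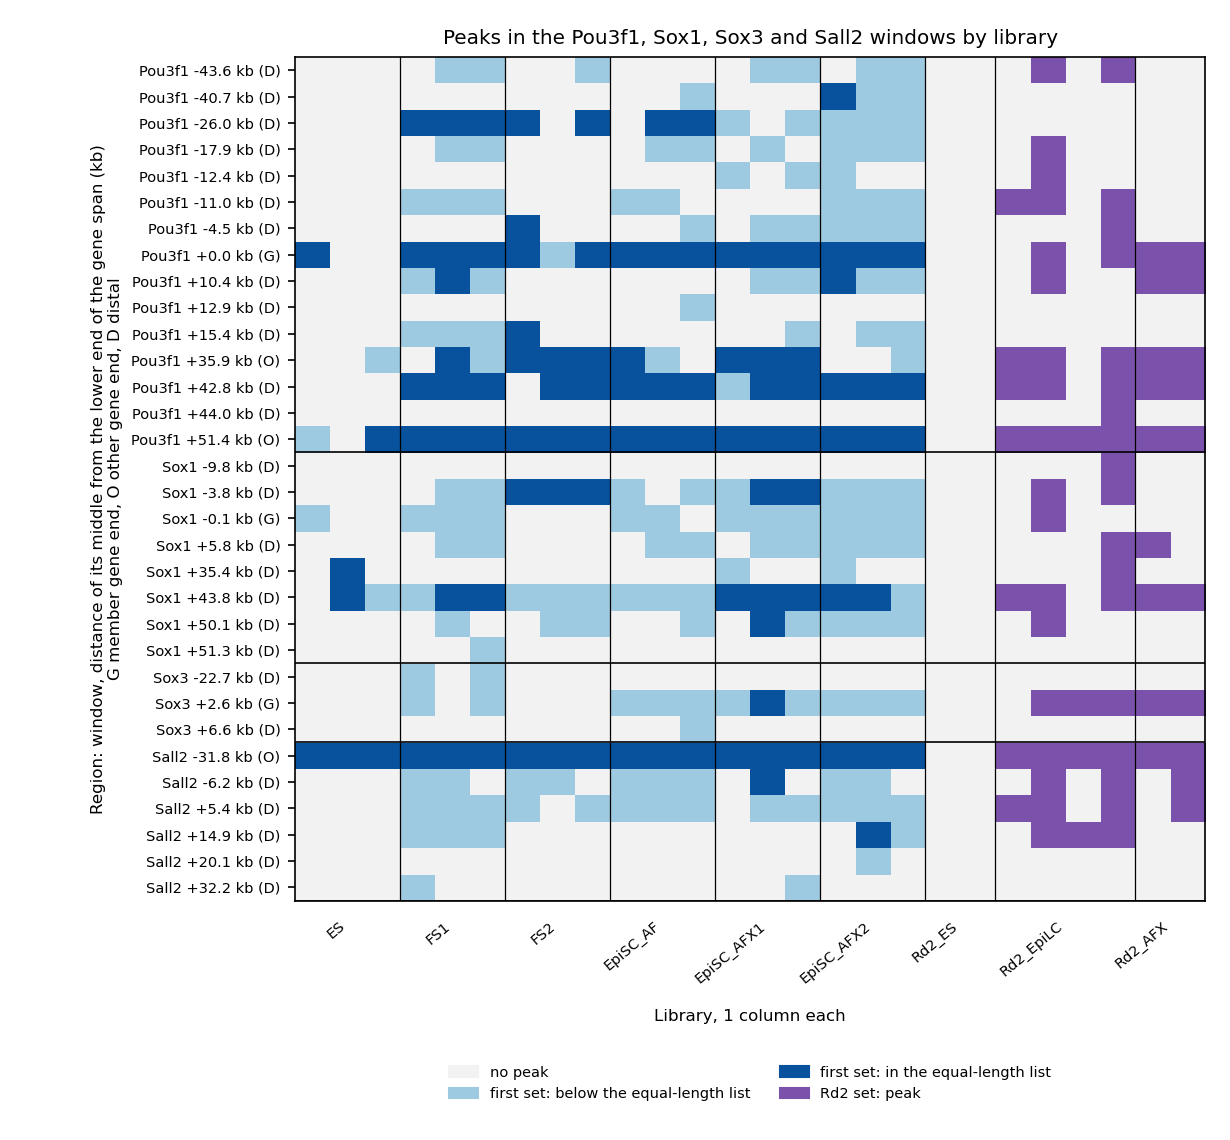
Each row is 1 of the 32 regions, labelled with its gene window, the distance in kb of its middle from the lower-coordinate end of the gene span, and whether it is a member's gene end (G), another gene's end (O) or distal (D), and each column is 1 library. Dark blue cells are first-set peaks kept at equal length, light blue cells first-set peaks found in the deposited list alone, and purple cells peaks of the Rd2 set. The 3 ES columns are empty in 25 rows, and the 2 Rd2_ES columns in all 32.

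Pou3f1, at chr4:124657646-124660655, had the most peaks and was the member where ES stood apart at equal length. Its window held 2, 0 and 2 peaks in the 3 ES libraries as deposited, against 7, 10 and 10 in FS1 and 6, 4 and 6 in FS2. It held 5, 7 and 8 in EpiSC_AF, 6, 8 and 10 in EpiSC_AFX1, and 10, 11 and 12 in EpiSC_AFX2. No ES library reached the lowest FS or EpiSC library.

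At equal length the Pou3f1 window held 1, 0 and 1 peaks in ES, 4, 6 and 4 in FS1, 6, 3 and 5 in FS2, 4 in each EpiSC_AF library, 3, 4 and 4 in EpiSC_AFX1, and 5, 3 and 3 in EpiSC_AFX2. The groups ES and FS did not overlap, having means of 0.667 and 4.67 peaks, so that FS stood 4 higher (two-sided exact permutation test, p = 0.0119, adjusted p = 0.190 over 17769 genes). The groups ES and EpiSC_AFX did not overlap either, EpiSC_AFX having a mean of 3.67, which is 3 above ES (exact permutation p = 0.0119, adjusted p = 0.138 over 17505 genes). The raw p is the smallest that 3 against 6 libraries allow, and neither difference passed after adjustment. Beside these, 5.21% of all genes had every FS library above every ES library, and 7.06% had every EpiSC_AFX library above every ES library. These comparisons share the ES libraries, and FS and EpiSC_AFX are also compared with each other, so the results are not independent.

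In the lists as deposited, the Pou3f1 difference was 5.83 peaks for FS over ES (exact permutation p = 0.0119, adjusted p = 0.128) and 8.17 for EpiSC_AFX over ES (exact permutation p = 0.0119, adjusted p = 0.0324). The second of these passed, as did 36.4% of 20114 genes in the same direction and 0.338% in the other, and groups without overlap were found at 17.9% of genes for FS over ES and 42.3% for EpiSC_AFX over ES. FS and EpiSC_AFX overlapped at Pou3f1. Their difference at equal length was -1.0 peaks for EpiSC_AFX against FS (exact permutation p = 0.201, adjusted p = 1), and as deposited it was 2.33 in the other direction (exact permutation p = 0.136, adjusted p = 0.979).

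**Figure D2:**
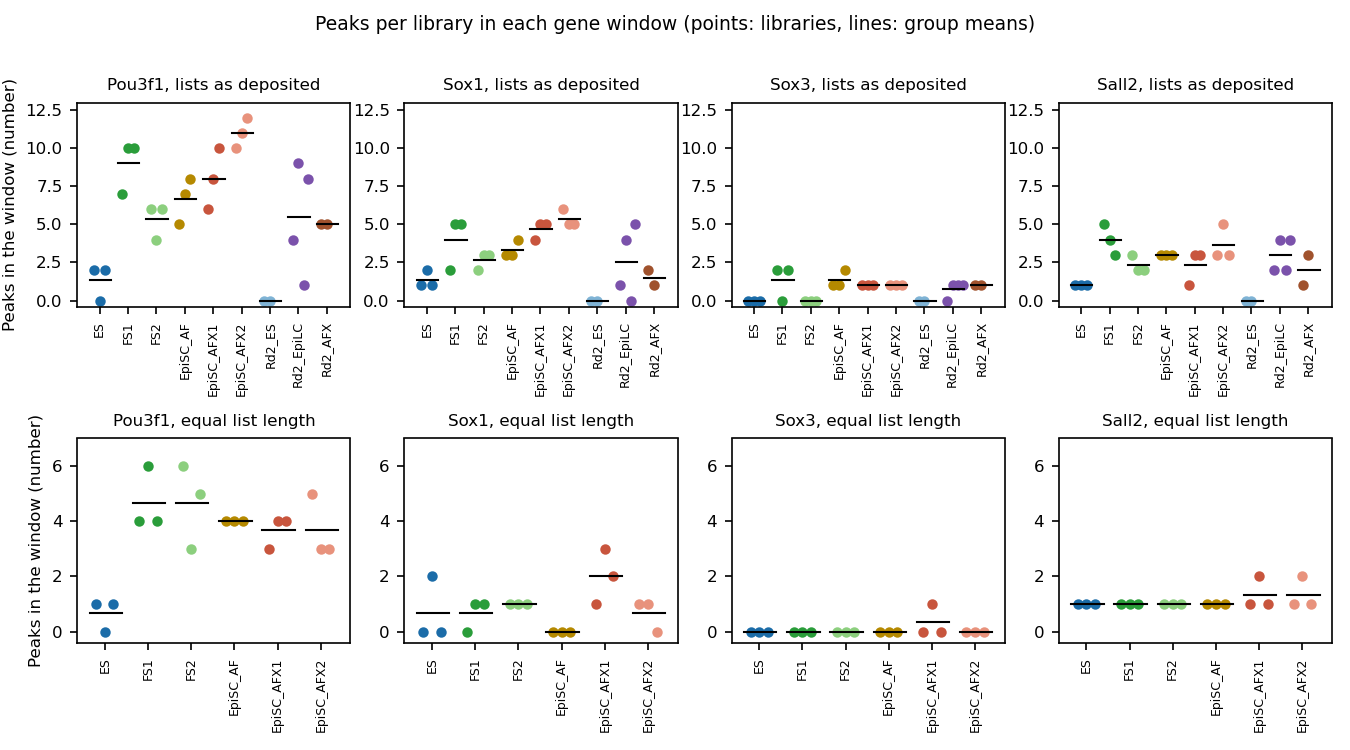
Each point is the number of peaks of 1 library in the window of 1 gene, and each line is the mean of a group, with lists as deposited above and the first set at equal length below. At equal length the ES libraries sit at 0 or 1 for Pou3f1 and all other libraries at 3 to 6, while for Sox1, Sox3 and Sall2 the ES values lie within the range of the others.

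The end of the Pou3f1 span, chr4:124657096-124658190, ranked highest among the ends of the members, with a median percentile of 87.9 within the lists that had it, against 58.0 for Sox3 and 23.8 for Sox1. It covers the lower end of the gene and reaches the lncRNA Gm2164, which ends 159 bp away, so the peak cannot be assigned to either of these genes alone. A peak lay there in 20 of 26 lists: 1 of 3 ES, 3 of 3 in each of FS1, FS2, EpiSC_AF, EpiSC_AFX1 and EpiSC_AFX2, 0 of 2 Rd2_ES, 2 of 4 Rd2_EpiLC and 2 of 2 Rd2_AFX. At equal length it remained in 1 ES, 5 FS, 3 EpiSC_AF and 6 EpiSC_AFX libraries (ES against EpiSC_AFX, two-sided Fisher's exact p = 0.0833, adjusted p = 0.603). Groups split by every library were found at 3.09% of genes for a peak in every EpiSC_AFX and no ES library, and Pou3f1 was not among them because of the ES peak.

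Ranked by -log10 p within its own list, the Pou3f1 end stood at percentiles 93.0, 96.6 and 92.1 in FS1, where 100 would be the highest peak. It stood at 66.3, 7.63 and 68.8 in FS2, at 85.4, 94.8 and 90.7 in EpiSC_AF, at 84.1, 88.8 and 91.8 in EpiSC_AFX1 and at 96.3, 93.8 and 96.8 in EpiSC_AFX2. All FS1 and EpiSC libraries of the first set thus had it at 84.1 or higher and no FS2 library did, with replicate 2 near the bottom of its list. In ES the single peak, in replicate 1, stood at 43.9. In the Rd2 set it stood at 52.6 and 87.0 in the Rd2_EpiLC libraries that had it, and at 68.5 and 15.4 in Rd2_AFX. Ranks from lists of different length describe the lists and show no change.

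A distal region at chr4:124631504-124631881, inside Gm2164 with its middle at -26.0 kb from the lower end of Pou3f1, had peaks in more FS than EpiSC_AFX libraries at equal length. It was kept in 5 of 6 FS libraries (3 of FS1 and 2 of FS2), 2 of 3 EpiSC_AF, 0 of 6 EpiSC_AFX and 0 of 3 ES. The difference between FS and EpiSC_AFX had a Fisher's exact p of 0.0152 and an adjusted p of 1 over 18774 regions, of which 0.831% had an unadjusted p under 0.05. In the lists as deposited EpiSC_AFX had it in 5 of 6 libraries, at percentiles from 6.11 to 59.4. It stood at 79.6 to 93.5 in FS1, at 44.6 and 69.2 in the 2 FS2 libraries that had it, and at 65.9 and 74.9 in EpiSC_AF. At equal length FS2 replicate 2 was the only FS library without it. Leaving that library out therefore makes the region, by construction, present in every FS library and in no EpiSC_AFX or ES library. No Rd2 library, Rd2_AFX included, had a peak there.

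Other regions of the Pou3f1 window were found in many lists. The region at chr4:124699992-124700964, which contains a RefSeq start of Fhl3, had a peak in 19 lists, in no ES library, in 5 of 6 FS, 3 of 3 EpiSC_AF and 6 of 6 EpiSC_AFX. At equal length it was kept in 5 FS, 3 EpiSC_AF and 5 EpiSC_AFX libraries. The region at the end of Fhl3 (chr4:124708714-124709375) was the most widely held of the window, in 23 lists, including 2 of 3 ES, and that at the end of Utp11 (chr4:124693275-124693843) in 17, including 1 of 3 ES. Fhl3 encodes a LIM-domain protein and Utp11 a factor of ribosome assembly. Much of the equal-length Pou3f1 window count in FS and EpiSC_AFX lies at starts or ends of these genes. At equal length the end of Fhl3 was kept in 1 ES, 6 FS and 6 EpiSC_AFX libraries, and that of Utp11 in 0, 4 and 3. A 20 kb flank leaves out these regions and others of the window. With it the difference from ES was 1 peak for FS (adjusted exact permutation p = 0.897) and 0.833 for EpiSC_AFX (adjusted exact permutation p = 0.402). Closer to Pou3f1, chr4:124646352-124647010 (-11.0 kb) and chr4:124667746-124668440 (10.4 kb, over the start of the lncRNA Gm38545) had a peak in 11 lists each, neither with one in ES or FS2. Apart from Rd2, the first was found in FS1, EpiSC_AF and EpiSC_AFX2 and the second in FS1 and EpiSC_AFX, and Rd2_AFX had the second in 2 of 2 libraries and the first in none.

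Sox1, at chr8:12395519-12399555, had fewer peaks than Pou3f1 and kept few of them at equal length. As deposited its window held 1, 2 and 1 peaks in ES, 2, 5 and 5 in FS1, 2, 3 and 3 in FS2, and 3, 3 and 4 in EpiSC_AF. It held 4, 5 and 5 in EpiSC_AFX1 and 6, 5 and 5 in EpiSC_AFX2. Every EpiSC_AFX library lay above every ES library, as at 42.3% of genes. The difference of 3.67 peaks from ES to EpiSC_AFX passed (exact permutation p = 0.0119, adjusted p = 0.0324, beside 36.4% of all genes), and that of 2 from ES to FS did not (exact permutation p = 0.0952, adjusted p = 0.253).

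At equal length the Sox1 groups overlapped, with 0, 2 and 0 peaks in ES, 0, 1 and 1 in FS1, 1 in each FS2 library, 0 in each EpiSC_AF library, 1, 3 and 2 in EpiSC_AFX1 and 1, 1 and 0 in EpiSC_AFX2. The difference from ES was 0.167 for FS (exact permutation p = 1, adjusted p = 1) and 0.667 for EpiSC_AFX (exact permutation p = 0.524, adjusted p = 0.812). From FS to EpiSC_AFX it was 0.5 (exact permutation p = 0.515, adjusted p = 1). The 2 ES peaks were both in replicate 2, whose list is the shortest and was not cut, so its weakest peaks stayed in. Without that library the differences from ES were 0.833 for FS and 1.33 for EpiSC_AFX. Without ES replicate 1 or 3 they were -0.167 and 0.333, and none of these passed.

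The start of Sox1 lies in the region chr8:12395031-12395788, and the sequence printed above falls within it. A peak was found there in 13 lists, namely 1 of 3 ES, 3 of 3 FS1, 0 of 3 FS2, 2 of 3 EpiSC_AF, 6 of 6 EpiSC_AFX, 1 of 4 Rd2_EpiLC and no Rd2_AFX or Rd2_ES library. These peaks ranked low, at percentiles 61.8, 42.8 and 11.7 in FS1 and 8.82 to 42.5 in EpiSC_AFX, and none was kept at equal length. The difference between ES and EpiSC_AFX as deposited had a Fisher's exact p of 0.0833 (adjusted p = 0.228), and that between FS and EpiSC_AFX one of 0.182 (adjusted p = 1). The lncRNA Sox1ot overlaps Sox1, so a peak here can belong to either gene.

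The region chr8:12391596-12391934, with its middle at -3.75 kb from the lower end of Sox1, had no peak in ES and was found in 15 lists: 2 of 3 FS1, 3 of 3 FS2, 2 of 3 EpiSC_AF, 6 of 6 EpiSC_AFX and 2 of 4 Rd2_EpiLC. At equal length it was kept in 3 of 3 FS2 libraries and 2 of 3 EpiSC_AFX1 libraries and in no other culture, with percentiles from 46.7 to 56.1 in the short FS2 lists. The region chr8:12439101-12439467, with its middle at 43.8 kb, was the most widely held of the Sox1 window. A peak lay there in 22 lists, in 2 of 3 ES and in every FS, EpiSC_AF, EpiSC_AFX and Rd2_AFX library. It ranked at percentiles 88.4 to 91.8 in EpiSC_AFX1, 66.5 to 84.8 in FS1 and 14.8 to 24.7 in FS2, the lowest range being that of FS2 among these 3 cultures. Of the rest, chr8:12400876-12401677 (5.76 kb) was found in 11 lists, all without ES or FS2, and chr8:12444959-12446302 (50.1 kb) in 10.

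Sox3, at chrX:60891366-60893430, had a single recurrent region. Its window held no peak in any ES or FS2 library as deposited, 2, 0 and 2 in FS1, 1, 1 and 2 in EpiSC_AF, and 1 in each EpiSC_AFX1 and EpiSC_AFX2 library. The difference of 1 between ES and EpiSC_AFX passed (exact permutation p = 0.0119, adjusted p = 0.0324, beside 36.4% of all genes), and that of 0.667 between ES and FS did not (exact permutation p = 0.5, adjusted p = 0.652). At equal length 1 library of the first set, EpiSC_AFX1 replicate 2, had a peak in the window, so no test against FS could be made for ES and the other differences were 0.167 (exact permutation p = 1).

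The recurrent region chrX:60893374-60894472 covers the upper end of Sox3 and the start of the lncRNA Gm38438, which begins 223 bp past the gene. A peak was found there in 16 lists: 2 of 3 FS1, 0 of 3 FS2, 3 of 3 EpiSC_AF, 6 of 6 EpiSC_AFX, 3 of 4 Rd2_EpiLC, 2 of 2 Rd2_AFX and no ES library of either set. As deposited every EpiSC_AFX library and no ES library had it (Fisher's exact p = 0.0119, adjusted p = 0.0746 over 13646 genes), a split also seen at 15.9% of genes. FS had it in 2 of 6 libraries against 6 of 6 in EpiSC_AFX (Fisher's exact p = 0.0606, adjusted p = 1). The 2 FS1 peaks ranked at percentiles 64.8 and 60.7, within the EpiSC_AFX range of 30.6 to 75.9. The other regions were chrX:60868492-60868745, found in 2 FS1 libraries, and chrX:60897845-60898041, found in 1 EpiSC_AF library.

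Sall2, at chr14:52311177-52328670, had no peak within 1 kb of either end of its span in any of the 26 lists. Its window held 1 peak in each ES library as deposited, 5, 4 and 3 in FS1, 3, 2 and 2 in FS2, 3 in each EpiSC_AF library, 1, 3 and 3 in EpiSC_AFX1 and 3, 5 and 3 in EpiSC_AFX2. Every FS library lay above every ES library, as at 17.9% of genes. The difference from ES was 2.17 peaks for FS (exact permutation p = 0.0357, adjusted p = 0.171) and 2 for EpiSC_AFX (exact permutation p = 0.119, adjusted p = 0.181). At equal length ES, FS1, FS2 and EpiSC_AF had 1 peak in every library, and EpiSC_AFX1 and EpiSC_AFX2 had 1, 2 and 1 each. The single ES peak of each library lay at the shared starts of Rab2b and Tox4.

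That region, chr14:52278922-52279739, was found in every library outside Rd2_ES and was kept in all 18 libraries at equal length. The region at an inner RefSeq start of Sall2, chr14:52315805-52317255, was found in 17 lists: 0 of 3 ES, 3 of 3 FS1, 2 of 3 FS2, 3 of 3 EpiSC_AF, 2 of 3 EpiSC_AFX1, 3 of 3 EpiSC_AFX2, 3 of 4 Rd2_EpiLC, 1 of 2 Rd2_AFX and 0 of 2 Rd2_ES. None of these peaks was kept at equal length. In the first set 13 of them lay over the inner start printed above, while the 4 peaks of the Rd2 set lay beside it. The peaks ranked at percentiles 45.4, 62.7 and 68.0 in FS1, and at 11.2 and 16.7 in the FS2 libraries that had one.

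Inside Sall2, chr14:52325961-52326266 was found in 3 FS1, 2 EpiSC_AFX2 and 3 Rd2_EpiLC libraries and in no other list. The region chr14:52304664-52305257, over a start of Mettl3, the catalytic subunit of the RNA m6A methyltransferase, was found in 13 lists, none of them from ES. The last of the named Sall2 regions, chr14:52343093-52343581, was found in 1 FS1 and 1 EpiSC_AFX1 library.

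**Figure D3:**
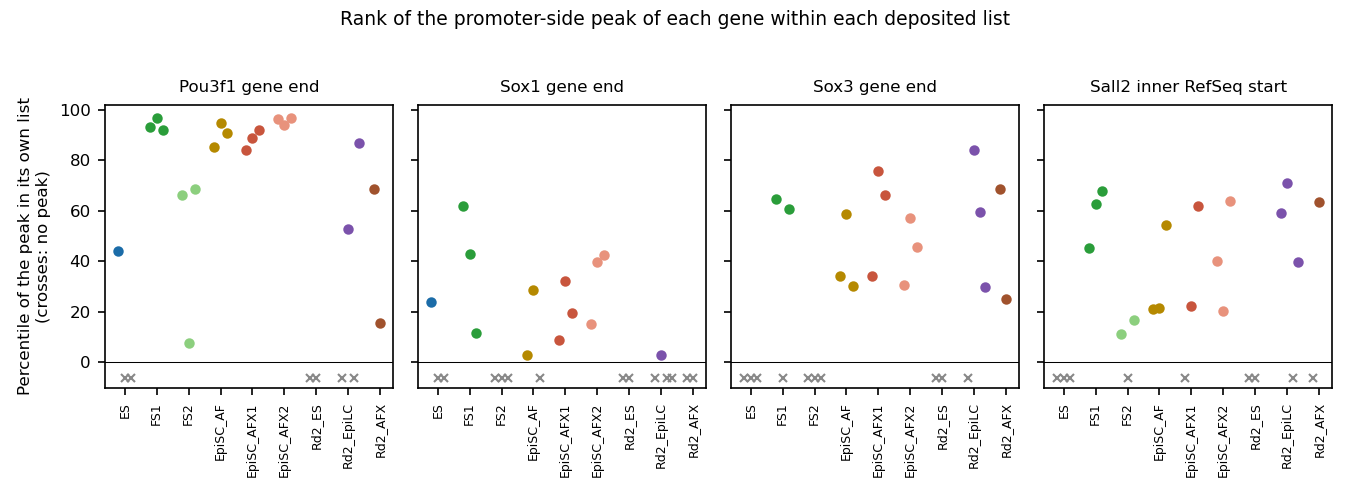
Each point is the percentile of a peak by -log10 p within its own deposited list, for the gene-end region of Pou3f1, Sox1 and Sox3 and the inner RefSeq start region of Sall2, and each cross is a library without a peak. The Pou3f1 points lie between 84.1 and 96.8 in FS1 and the EpiSC cultures of the first set, while the Sox1 points do not exceed 61.8.

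In the Rd2 set, all 4 windows were empty in both Rd2_ES libraries, whose lists are the shortest of the series. The Rd2_EpiLC libraries, in the order of their labels, held 4, 9, 1 and 8 peaks at Pou3f1, 1, 4, 0 and 5 at Sox1, 0, 1, 1 and 1 at Sox3, and 2, 4, 2 and 4 at Sall2. Their lists held 10563, 23608, 7469 and 26045 peaks, and the libraries with the longest lists had the most peaks at Pou3f1, Sox1 and Sall2. Their labels carry numbers of 2 parts whose meaning is not given, so these 4 libraries may not be 4 separate samples, and the tests below count them as 4. Rd2_AFX held 5 and 5 at Pou3f1, 2 and 1 at Sox1, 1 and 1 at Sox3, and 1 and 3 at Sall2, within the Rd2_EpiLC range but for the 1 at Sall2, which lay below it. The differences from Rd2_EpiLC to Rd2_AFX were -0.5, -1.0, 0.25 and -1.0 peaks, each with an adjusted exact permutation p of 1, and 4 against 2 libraries cannot give a p below 0.0667.

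Per 10000 peaks of a list, the 4 windows together held 3.65 to 4.12 peaks in ES, 6.05 to 7.96 in FS1, 7.63 to 8.49 in FS2, 6.50 to 7.74 in EpiSC_AF, 6.78 to 7.95 in EpiSC_AFX1 and 7.44 to 8.08 in EpiSC_AFX2. The ES libraries did not overlap the rest of the first set on this scale. Taken gene by gene, all ES libraries lay below all 15 others at Pou3f1 and not at Sox1, Sox3 or Sall2, beside 6.87% of 20594 genes. It was 5.36 to 7.62 in Rd2_EpiLC, 8.0 and 9.33 in Rd2_AFX and 0 in Rd2_ES. FS2, with lists shorter than FS1, lay at the upper end of the first set.

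**Figure D4:**
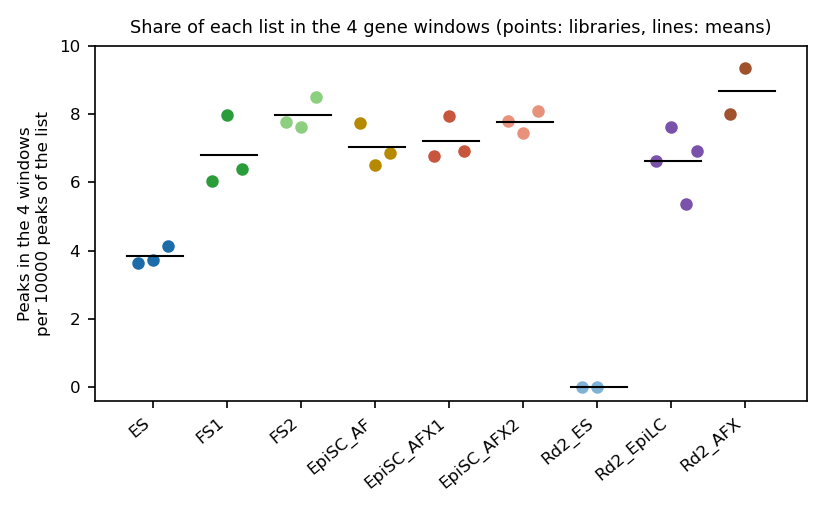
Each point is the number of peaks in the 4 windows per 10000 peaks of the list of 1 library, and each line is the mean of a group. The ES libraries sit between 3.65 and 4.12, below the 6.05 to 8.49 of the other first-set libraries, and both Rd2_ES libraries sit at 0.

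A region is called split here when all libraries on a side of a comparison had a peak there and none on the other side did. No region in the 4 windows was split in any comparison, at equal length in the first set or as deposited in the Rd2 set, whose lists were not cut. Of all regions in the genome, 3.81% were split this way between ES and FS, 5.31% between ES and EpiSC_AFX and 0.181% between FS and EpiSC_AFX, and 1.81% were between Rd2_EpiLC and Rd2_AFX. As deposited, 3 of 26 regions were split between ES and EpiSC_AFX, each held by EpiSC_AFX: the Fhl3 start region of the Pou3f1 window, the region at -3.75 kb from Sox1 and the end of Sox3. For all regions that share was 8.18% of 51601, and each of the 3 had a Fisher's exact p of 0.0119 and an adjusted p of 0.137. No region of the windows passed an adjusted p of 0.05 by Fisher's exact test in any comparison. Neither did any other region of the genome, so this does not set the windows apart. At equal length and an unadjusted p under 0.05 there were 2 of 12 for ES against FS (6.64% of all regions), 1 of 14 for ES against EpiSC_AFX (8.11%), 1 of 16 for FS against EpiSC_AFX (0.831%), and as deposited 0 of 23 for the Rd2 set (0%). The Rd2 result was fixed in advance, since 4 against 2 libraries cannot give a p under 0.05. The lists as deposited gave 4 of 25 for ES against FS (7.39%), 9 of 26 for ES against EpiSC_AFX (14.3%) and 0 of 28 for FS against EpiSC_AFX (0.707%).

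By the exact permutation test of window peaks, no gene in the genome passed at equal length in the first set or as deposited in the Rd2 set. Unadjusted p-values under 0.05 were found for 2086 genes (11.7%) between ES and FS, 2545 (14.5%) between ES and EpiSC_AFX, 472 (2.78%) between FS and EpiSC_AFX and 0 in the Rd2 set, where none is possible. No other test of these peak numbers was run.

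Relatives of the members were read from fixed lists. They were 4 POU genes (Pou3f2, Pou3f3, Pou3f4, Pou5f1), 3 SOXB genes (Sox2, Sox14, Sox21), 3 Spalt genes (Sall1, Sall3, Sall4) and 30 early neural genes. None passed at equal length in the first set or as deposited in the Rd2 set. No gene of the genome passed there either, by window peaks or by gene ends, so this does not set the relatives apart. As deposited, window peaks were more numerous in EpiSC_AFX than in ES, past the threshold, for 3 of 4 POU, 0 of 3 SOXB, 3 of 3 Spalt and 17 of 30 early neural genes, beside 36.4% of all genes. The median difference was 2.25 peaks for the POU genes, 0.667 for the SOXB genes, 2.33 for the Spalt genes and 2.83 for the early neural genes, against 1.67 over all genes tested. Between ES and FS none passed, and no gene of the genome did. The medians were 1.67, 0.333, 0.833 and 2.17 against 1.17 over all genes.

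The ends of these relatives differed in their pattern. Pou5f1, which encodes the pluripotency factor Oct4, carried a gene-end peak at equal length in 4 of 6 FS libraries, 4 of 6 EpiSC_AFX libraries and 0 of 3 ES libraries. The end of Pou3f2, which encodes another class III POU factor, had one in 1 ES, 4 FS and 4 EpiSC_AFX libraries. Sox21 went the other way, with a peak in 3 of 3 ES libraries and in none of the other 15 libraries of the first set. At equal length 0.816% of genes had such a peak in every ES and no FS library and 0.997% in every ES and no EpiSC_AFX library, and as deposited Sox21 also had one in 2 FS1, 2 EpiSC_AF and 3 EpiSC_AFX libraries. Sox2, the SOXB1 factor of pluripotent cells, had one in 2 ES, 1 FS and 5 EpiSC_AFX libraries. None of these passed after adjustment by Fisher's exact test, and neither did the end of any other gene.

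Genes whose count correlated most with that of a member were sought over the 18 first-set libraries at equal length. For Pou3f1 they were Aipl1, Anapc1 and Bhlha9, among 4 genes tied at a Pearson r of 0.857, with 52 of 17870 genes at 0.8 or higher. A high r means counts that rise and fall together, and not equal counts. For Sox1 they were H2-Ob (0.817), Cygb (0.744) and Eipr1 (0.742), and for Sall2 Gabrq (1), Il15ra (0.826) and Ankle2 (0.791). For Sox3 37 genes tied at r = 1, since a single library carried a peak, and Adam30, Adora3 and Amn came first by the alphabet. The points share libraries and list ranks, and counts this small give many ties, so these values are descriptions with no p.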

How the data were processed

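The material was 26 ATAC-seq peak lists in the broadPeak layout, deposited with 1 list per library, so peaks were called per sample. Per the submitters' processing notes, Trim Galore, Bowtie, Picard and MACS2 were used with build mm10, and their versions, roles and settings are not given in the sources used here. The score, the ratio (fold enrichment), the −log10 p and the −log10 q of each peak are the authors' deposited values, relative to a background that the sources used here do not give. These values rank or describe peaks within 1 list only. Shortest peaks and peak names differ between the first set and the Rd2 set, so their processing may have differed, and the sets were not compared.

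Gene spans and neighbours came from RefSeq (GRCm38.p6, the same assembly as mm10), in a table without strand, and promoters from RefSeq, which matched Sox1 once and Sall2 at 2 starts. Lists were cut to 8044 peaks, the shortest length of the first set. Window peak numbers were compared by exact permutation over libraries, and gene ends and regions by Fisher's exact test, all two-sided and adjusted by Benjamini-Hochberg over all features tested, with a threshold of 0.05 (Python 3.11.15, scipy 1.17.1). The permutation and Fisher's exact tests, before adjustment, were tried on simulated data in which libraries were drawn independently. The list cut, the merging and the adjustment were not simulated. FS joined FS1 and FS2, and EpiSC_AFX joined EpiSC_AFX1 and EpiSC_AFX2. EpiSC_AF and Rd2_ES were described without a test.

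The members and gene lists were chosen with earlier results of these data known. By rule the text names the members, their gene-end regions, up to 4 distal regions per window in the most lists, split regions, and the 3 genes of most correlated count. The ends of Fhl3, Utp11 and the Rab2b and Tox4 pair, the region at 35.4 kb from Sox1, and the relatives named singly, were chosen after their values were seen. Alternatives covered list length, ranking, the q threshold, window and gene-end width, overlap, filters, merging, the replicate block and each library left out.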

Additional observations from a re-analysis of the deposited data

Results flagged for a closer look

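In 3 of 20 group and window combinations examined, 1 library stood far from the others of its group, by a criterion that chance meets in about 1 of 20 groups of continuous values. That rate need not hold for small counts with ties such as these. In the Sox1 window at equal length, FS1 replicate 1 had 0 peaks and the other 5 FS libraries had 1 each. In the Sox3 window at equal length, EpiSC_AFX1 replicate 2 had 1 peak and the other 5 EpiSC_AFX libraries had 0. In the Sox3 window of the lists as deposited, Rd2_EpiLC replicate 1 had 0 peaks and the other 3 Rd2_EpiLC libraries had 1 each. Each rests on a difference of 1 peak.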

How the results depend on the processing

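Of 351 values of the members under an alternative, 335 kept their side of the threshold without turning direction, 12 turned direction and 4 passed where the equal-length value had not. Of the 335, 311 kept their direction, 15 stayed at 0, 7 went to 0 and 2 left 0. Those that passed were all in ES against EpiSC_AFX: with lists as deposited, Pou3f1 at 8.17 peaks, Sox1 at 3.67 and Sox3 at 1, and when a peak needed a −log10 q of 5 or more, Pou3f1 at 4 (adjusted exact permutation p = 0.0365). In the same settings 7383 and 5280 genes passed, against 0 at equal length. The Pou3f1 adjusted p ranged from 0.0324 to 0.402 over its alternatives in that comparison and from 0.128 to 0.897 for ES against FS. Both highest values came with a 20 kb flank, where the differences were 0.833 and 1 peak.

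Directions that turned, with no value past the threshold, were these. With lists as deposited, FS against EpiSC_AFX gave 2.33 peaks at Pou3f1 and -0.167 at Sall2, and with −log10 q of at least 5 it gave 1.67 at Pou3f1. The Sox1 difference in that comparison was -0.167 with a 20 kb flank and -0.167 with ranking by fold enrichment. Sox1 in ES against FS was -0.167 without ES replicate 1 or 3, within a range of -0.167 to 0.833 over the libraries left out. In Rd2, Pou3f1 was 0.667 without Rd2_EpiLC replicate 2 and 0.333 without replicate 4, within a range of -2 to 0.667, and with −log10 q of at least 5 Sox3 was -0.25 and the gene ends of Pou3f1 and Sox3 were each -25 percentage points. The cause was not tested.

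Split regions numbered 0 at equal length. For ES against EpiSC_AFX they numbered 3 as deposited, where 8.18% of all regions were split this way. They numbered 1 with −log10 q of at least 5 (the end of Pou3f1) and 2 when 50% of a region had to be covered. These 2 were the shared start region of Rab2b and Tox4 and the end of Fhl3. ES had equal-length peaks at them in 3 and 1 of its libraries, each covering less than 50% of the region. Leaving out single libraries gave 0 to 1 in each comparison. The 1 was found in the Pou3f1 window without ES replicate 1, ES replicate 3 or EpiSC_AFX1 replicate 1 (ES against EpiSC_AFX), without ES replicate 3, FS2 replicate 1 or FS2 replicate 2 (ES against FS), and without FS2 replicate 2 (FS against EpiSC_AFX). In Rd2 it was found without Rd2_EpiLC replicate 2 or 3 in the Pou3f1 window and without replicate 1 in the Sall2 window. Apart from the lists as deposited, the share of all regions split under each alternative is not given here. Those counts therefore describe the windows only.

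Replicate numbers did not pair the libraries: over 45 pairs, same-numbered libraries had correlations of deviations from -0.0431 to 0.0396, and 4 of 18 libraries were closest to their own number. With the replicate block, Pou3f1 gave 4 peaks for ES against FS (adjusted exact permutation p = 0.429) and 3 for ES against EpiSC_AFX (adjusted exact permutation p = 0.335), 0 genes passed and no call changed, the smallest possible p being 0.037. No block was possible for Rd2 or for gene ends and regions. Without read counts, depth limits what can be read from a missing peak, most of all in ES and Rd2_ES.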
